A study of Homo sapiens with 6 samples.

Results

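The nuclear lamina and high mobility group (HMG) genes whose levels are commonly read in senescence were followed in HCT116 cells treated with oxaliplatin. The set held 10 genes, taken from the table by symbol, and each had exactly 1 row among the 27942 genes of the deposited count table. LMNA, LMNB1 and LMNB2 encode the lamins, LBR and TMPO encode inner nuclear membrane and lamin-binding proteins, HMGB1, HMGB2, HMGA1 and HMGA2 encode chromatin architectural proteins, and GLB1 encodes lysosomal beta-galactosidase. HCT116 is an established human colorectal carcinoma line with intact p53. It was cultured in RPMI with serum, and 3 libraries came from untreated cells (NT) and 3 from cells exposed to 0.5 µM oxaliplatin, the IC50, for 24 h (OXA). Oxaliplatin is a platinum compound that forms DNA adducts, and the study used these libraries to profile the early transcriptional response. No vehicle is named for the NT cells, and nothing in the labels says whether libraries of 1 group came from separate cultures, so p-values measure the spread between these libraries, which may be technical.

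The lamina is a meshwork of A-type lamins (lamin A and lamin C, both made from LMNA) and B-type lamins under the inner nuclear membrane, and it anchors heterochromatin through partners such as LBR and the TMPO products (LAP2 proteins). Loss of lamin B1 and of HMGB2, release of HMGB1 from the nucleus, HMGA proteins in heterochromatin foci and a higher beta-galactosidase activity from GLB1 are widely used as marks of senescent cells. LMNB1, TMPO and HMGB2 are also known to follow proliferation. The libraries measure poly(A) RNA of bulk cells: protein, localization and enzyme activity were not measured, and fewer cells of a type and less RNA per cell cannot be told apart.

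The 6 libraries held between 32979521 and 40967880 counts, and all 10 genes passed the filter on low counts that left 13727 genes. CDKN1A, a p53 target that encodes the cell cycle inhibitor p21, is a known responder and rose from 5143 ± 907 normalized counts (mean ± SD, n = 3) in NT to 39110 ± 2895 in OXA, a log2 fold change of 2.93 with a standard error of 0.15 and an edgeR adjusted p of 0.000445. Epithelial markers were present: EPCAM had between 8451 and 10828 raw counts per library, whereas CDX1 had 0 and CEACAM5 at most 2, and with edgeR none of the 6 epithelial markers tested was called (3 higher and 0 lower at an unadjusted p under 0.05, 1 higher and 0 lower with DESeq2, 3 higher and 1 lower with the replicate block described next). With the block KRT19 (log2 fold change 1.37), KRT8 (0.50) and KRT18 (0.32) were higher and CDH1 (-0.20) was lower. Of all genes tested, 2.78% were higher and 2.29% lower with edgeR. These shares were 4.64% and 4.41% with DESeq2, and 12.1% and 10.9% with the block. Of 8 markers of other cell types, 4 could be tested. DCN was at 0 in every library, PTPRC, CD3E and PECAM1 had at most 7 counts, and the list summed to between 506 and 687 normalized counts in NT and between 1157 and 1342 in OXA. ACTA2, an actin of smooth muscle, was the 1 called higher with edgeR (205 ± 15.7 against 821 ± 122 normalized counts, log2 fold change 2.00, adjusted p = 0.00178). The other tested markers, VIM (-0.04), VWF (-0.09) and COL1A1 (0.30), were not called, so 1 of 4 (25%) was higher, against 2.78% of all genes tested. The part of these markers in the results was not tested.

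NT library 1 stood apart by GC content. Its median log2 deviation from the mean of the 6 libraries was -0.66 in the quintile of genes with the highest GC content and 0.17 in the lowest quintile. Across 12037 genes, which are not independent, the correlation of GC content with its log2 ratio to the other NT libraries was -0.80. This touches the genes studied here unequally, since the transcripts of LMNA (61.5% GC), LMNB2 (61.1%) and HMGA1 (61.6%) are GC-rich while those of the other 7 lie between 37.8% and 50.8%. Against the mean of NT libraries 2 and 3, NT library 1 lay at -1.05 log2 units for LMNA, -0.95 for HMGA1 and -0.76 for LMNB2, and between -0.05 and 0.33 for the other 7 genes. OXA library 1 was also the lowest OXA library in GC-rich genes, and same-numbered libraries deviated together, so an edgeR fit that holds the replicate number fixed (the replicate block) is set beside the unblocked one.

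**Figure D1:**
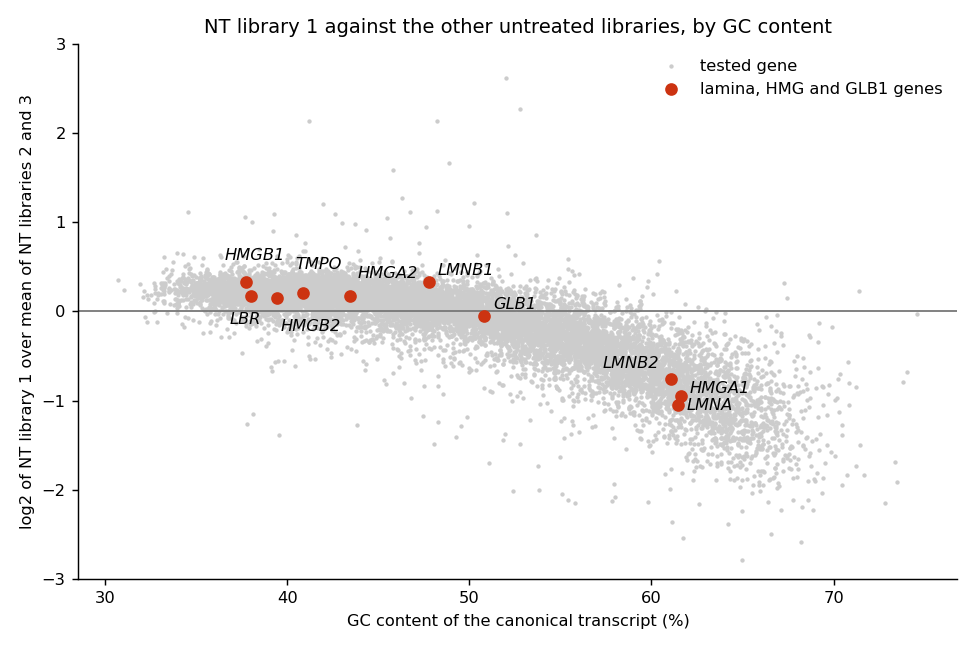
Each grey point is 1 of 12035 genes with at least 50 normalized counts on average, placed by the GC content of its canonical transcript in percent (x axis) and by the log2 ratio of NT library 1 to the mean of NT libraries 2 and 3 (y axis) (2 genes lower than the axis are not drawn). The red points are the 10 genes: LMNA, LMNB2 and HMGA1 sit near 61% GC and 0.76 to 1.05 log2 units below the line at 0, the others close to or above it.

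Levels between genes were compared per length of the canonical transcript, as TPM computed from the raw counts. HMGA1 was the most abundant of the 10 in NT, at 1856 ± 659 TPM (mean ± SD, n = 3). HMGB2 followed with 591 ± 43.5 TPM and HMGB1 with 474 ± 72.9 TPM, then TMPO with 282 ± 33.3 and LMNB1 with 208 ± 31.1. HMGA2 (154 ± 13.5), LMNB2 (141 ± 38.5), LBR (136 ± 15.4) and LMNA (134 ± 48.4) came next, neighbours in this order differing by less than the larger of their SDs, and GLB1 was the lowest at 48.7 ± 3.42 TPM. GLB1 lay at percentile 76.4 of the tested genes and the other 9 between 91.5 and 99.4. In OXA the order changed at 1 point: LMNA moved from rank 9 to rank 4, at 226 ± 44.7 TPM, above TMPO (170 ± 17.8), LMNB1 (140 ± 11.1), HMGA2 (134 ± 4.33), LMNB2 (117 ± 15.7) and LBR (100.2 ± 14.0).

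With no block, 1 of the 10 genes was called lower at an adjusted p under 0.05, TMPO, against 2.29% of all genes tested. None was called higher, against 2.78% of genes tested. At an unadjusted p under 0.05 edgeR had 1 gene higher (LMNA) and 4 lower. The share of all genes tested at that unadjusted cut was not counted, here or for the gene lists. With DESeq2, 1 was called higher (LMNA) and 3 lower (LMNB1, TMPO and HMGB2), against 4.64% and 4.41% of genes tested. With the replicate block in edgeR, 1 was called higher (LMNA) and 5 lower (LMNB1, LBR, TMPO, HMGB1 and HMGB2), against 12.1% and 10.9%. When each library was in addition freed of its trends on GC and length, 1 was higher (LMNA) and 5 lower, against 24.9% and 15.3%, with LMNB2 called in place of HMGB1. These trends were fitted in each library with no term for treatment. A change with treatment that follows GC or length is therefore removed too, and the fit takes the trends as known without error. The groups did not overlap for LMNA, which was higher in every OXA library, as for 14.5% of genes tested, nor for LMNB1, LBR, TMPO and HMGB2, which were lower in every OXA library, as for 14.4%. Within same-numbered pairs, 1 gene was higher in all 3 (33.8% of genes tested) and 7 were lower in all 3 (27.6%). The median log2 fold change of the 10 was -0.23, and that of all genes tested was 0.02.

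**Figure D2:**
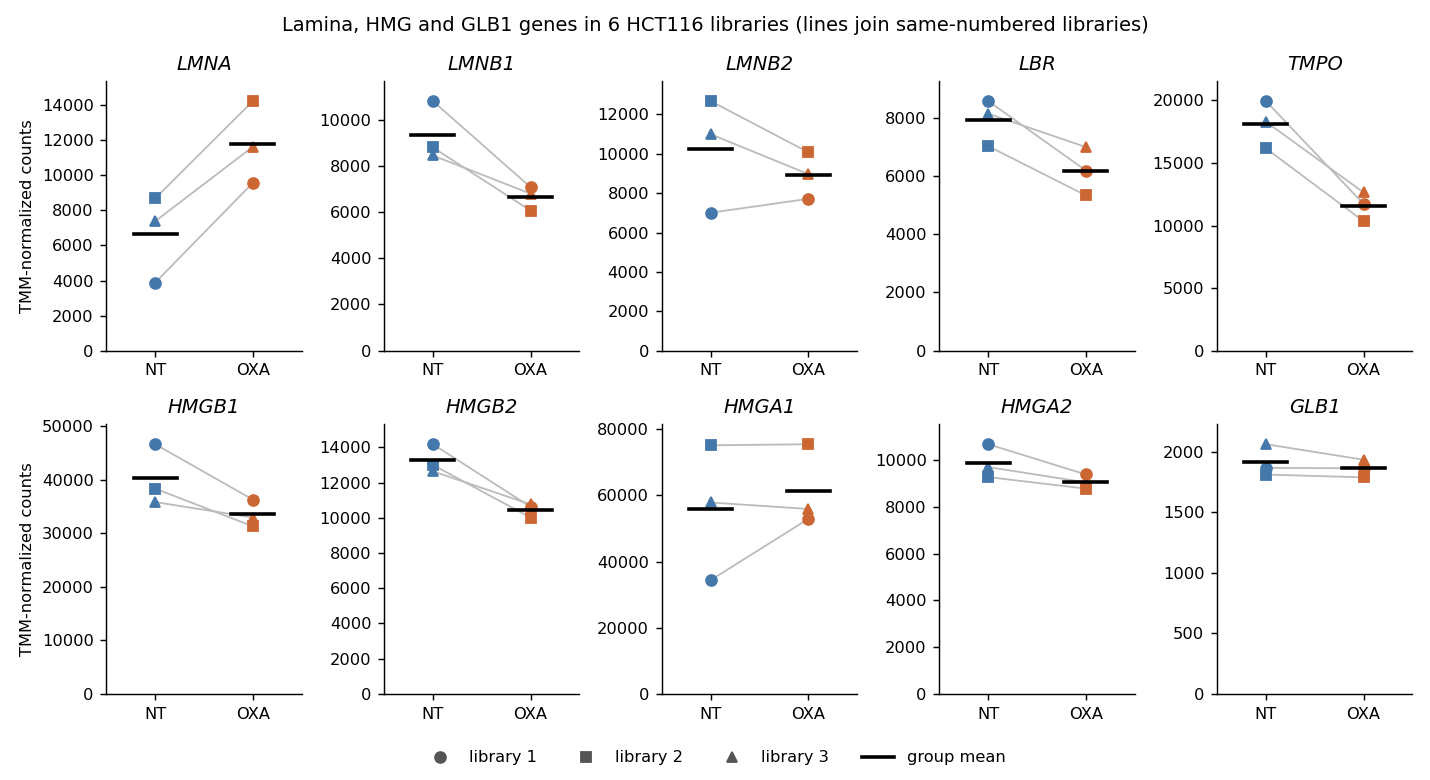
TMM-normalized counts (y axis, from 0) of each of the 10 genes in the 3 NT and 3 OXA libraries (x axis). Markers are libraries 1, 2 and 3, grey lines join same-numbered libraries and black bars are group means. LMNA is higher and LMNB1, LBR, TMPO and HMGB2 are lower in OXA along all 3 lines without overlap of the groups, while the lines of HMGA1 and LMNB2 go both ways.

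Promoters are shown for the genes with a start at the canonical transcript. RefSeq (GRCh38.p14) promoters matched 8 of the 10 genes at 15 starts. HMGB2 and HMGA2 had no entry, and 5 genes had a start at the first base of the canonical transcript. The 150 bases before those 5 starts are given 5′ to 3′ on the strand of the gene, with capitals for 5 motifs searched on both strands. The motifs were CCAAT (read as ATTGG where it lies on the opposite strand), the E2F-type letters TTTCCCGC and, as another form, TTTGGCGC, the cell cycle element TTTGAA and, as its variant, TTTAAA. None overlapped another in these windows.
TMPO (chr12:98515440-98515589, plus strand): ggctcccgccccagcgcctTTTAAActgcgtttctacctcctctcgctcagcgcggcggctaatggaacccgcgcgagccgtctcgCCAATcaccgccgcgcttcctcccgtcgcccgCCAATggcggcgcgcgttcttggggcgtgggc
LMNB1 (chr5:126776986-126777135, plus strand): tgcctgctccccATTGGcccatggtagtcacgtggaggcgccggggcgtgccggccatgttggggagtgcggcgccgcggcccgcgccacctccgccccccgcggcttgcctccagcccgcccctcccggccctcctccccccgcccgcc
HMGB1 (chr13:30465937-30466086, minus strand): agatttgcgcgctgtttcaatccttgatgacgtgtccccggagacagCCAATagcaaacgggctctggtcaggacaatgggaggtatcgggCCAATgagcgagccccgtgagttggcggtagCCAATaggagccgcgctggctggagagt
LMNB2 (chr19:2456960-2457109, minus strand): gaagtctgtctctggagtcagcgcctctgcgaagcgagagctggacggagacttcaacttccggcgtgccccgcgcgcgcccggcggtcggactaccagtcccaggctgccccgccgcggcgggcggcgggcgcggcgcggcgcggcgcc
HMGA1 (chr6:34236723-34236872, plus strand): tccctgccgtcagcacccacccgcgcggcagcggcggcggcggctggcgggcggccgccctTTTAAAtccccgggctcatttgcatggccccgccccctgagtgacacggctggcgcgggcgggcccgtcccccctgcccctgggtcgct
CCAAT, the letters that the factor NF-Y is known to bind, began 64 and 32 bases before the TMPO start, 103, 59 and 28 bases before the HMGB1 start and, reversed, 138 bases before the LMNB1 start. It was not among the letters of the LMNB2 and HMGA1 windows. Of all 35116 RefSeq promoters, 23.5% hold CCAAT in the same window. Among the matched genes it stood in 7 of 15 windows, 2 of which are overlapping windows of TMPO, and in 3 of the 5 windows printed. TTTAAA stood in the TMPO and HMGA1 windows (6.24% of all promoters). None of these 5 windows held TTTCCCGC (0.869% of all promoters), TTTGGCGC (0.359%) or TTTGAA (7.33%). Among the windows not printed, that of the LMNA start at base 156082573 held TTTCCCGC, TTTAAA and CCAAT. They began 23, 105 and 146 bases before that start. Other starts of TMPO, HMGB1 and HMGA1 had CCAAT in windows not printed. These matches are letters only and no binding was measured.

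LMNA (ENSG00000160789, GRCh38 chromosome 1, 156082573 to 156140081, plus strand) encodes lamin A and lamin C, which a count per gene does not separate. It had 3880, 8679 and 7379 normalized counts in NT libraries 1, 2 and 3, against 9571, 14231 and 11626 in OXA libraries 1, 2 and 3. The groups did not overlap, and the OXA library was 2.47, 1.64 and 1.58 times its same-numbered NT library. On the log2 scale the unblocked difference was 0.83 (standard error 0.28, 95% interval 0.17 to 1.49), and the edgeR adjusted p was 0.141 without a block and 0.00958 with it, at a blocked log2 fold change of 0.89 (0.57 to 1.21). NT library 1 carried part of the size: without it the unblocked estimate was 0.56 (edgeR adjusted p = 0.0603), and without both libraries numbered 1 the blocked estimate was 0.68. With the GC and length trends removed it was 0.75 with a standard error of 0.06 (edgeR adjusted p = 1.66e-08).

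LMNB1 (ENSG00000113368, chromosome 5, 126776623 to 126837020, plus strand) encodes lamin B1. Its normalized counts were 10801, 8793 and 8445 in NT and 7068, 6059 and 6793 in OXA. Each OXA library was below each NT library, at 0.654, 0.689 and 0.804 times its pair. This was a log2 fold change of -0.49 (standard error 0.12, 95% interval -0.77 to -0.22). The edgeR adjusted p of 0.0583 missed the threshold without a block and was 0.00887 with it. Without NT library 1, the only left-out library that gave a call, the change was -0.38 (edgeR adjusted p = 0.0430).

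LMNB2 (ENSG00000176619, chromosome 19, 2427638 to 2456959, minus strand) encodes the other B-type lamin. It had 7007, 12685 and 11001 normalized counts in NT and 7716, 10082 and 8973 in OXA, so the groups overlapped and pair 1 moved up (1.10 times) while pairs 2 and 3 moved down (0.795 and 0.816 times). Its log2 fold change of -0.20 (standard error 0.21, 95% interval -0.69 to 0.29) was within the spread, with edgeR adjusted p = 0.646 without and 0.272 with the block. Leaving out 1 library gave values from -0.04 (without NT library 2) to -0.41 (without NT library 1, edgeR adjusted p = 0.0725). With GC and length trends removed it was -0.28, called with the block (edgeR adjusted p = 0.000388) and without it (edgeR adjusted p = 0.0259).

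TMPO (ENSG00000120802, chromosome 12, 98515579 to 98550351, plus strand), whose LAP2 products bind lamins and chromatin, changed most among the genes that were lower. Normalized counts fell from 19958, 16181 and 18304 in NT to 11729, 10345 and 12648 in OXA. The gap was clear, the highest OXA library lying below the lowest NT library, and the paired ratios were 0.588, 0.639 and 0.691. TMPO changed by -0.65 on the log2 scale (standard error 0.11, 95% interval -0.92 to -0.38, edgeR adjusted p = 0.0231), and the block gave an edgeR adjusted p of 0.00323. The call was kept without NT library 1 (edgeR adjusted p = 0.0144) or NT library 2 (0.0315), and was lost without NT library 3 (0.0770), OXA library 1 (0.116), OXA library 2 (0.104) or OXA library 3 (0.0591).

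LBR (ENSG00000143815, chromosome 1, 225401502 to 225428925, minus strand) encodes the lamin B receptor, which is also a sterol reductase. It had 8578, 7027 and 8141 normalized counts in NT and 6189, 5335 and 6996 in OXA. OXA library 3 lay only just below NT library 2, the narrowest gap of the 4 lower genes whose groups did not overlap. Its log2 fold change was -0.36 (standard error 0.13, 95% interval -0.65 to -0.07), with edgeR adjusted p = 0.150 without and 0.0153 with the block. With GC and length trends removed it was -0.23, called with the block (edgeR adjusted p = 0.00234) and not without it (0.113).

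Among the HMG-box genes, HMGB2 (ENSG00000164104, chromosome 4, 173331376 to 173334432, minus strand) had 14178, 13002 and 12639 normalized counts in NT and 10621, 10012 and 10760 in OXA. Libraries within a group lay close together and the groups were apart. HMGB2 differed by -0.34 on the log2 scale (standard error 0.09, 95% interval -0.54 to -0.15), and the edgeR adjusted p was 0.0634 without and 0.0124 with the block. HMGB1 (ENSG00000189403, chromosome 13, 30456704 to 30617597, minus strand), the most counted of the box genes, had 46668, 38369 and 35854 normalized counts in NT and 36310, 31316 and 32967 in OXA. OXA library 1 exceeded NT library 3, so the groups overlapped, although each pair was lower (0.778, 0.816 and 0.919 times). For HMGB1 the log2 fold change of -0.27 (standard error 0.12, 95% interval -0.55 to 0.02) was called with the block (edgeR adjusted p = 0.0335) and not without it (0.256). It was -0.15 without NT library 1 (edgeR adjusted p = 0.380) and -0.11 (edgeR adjusted p = 0.0807) when the GC and length trends were removed with the block.

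HMGA1 (ENSG00000137309, chromosome 6, 34236873 to 34246231, plus strand) encodes an AT-hook protein and varied more within the NT group than between the groups. Its normalized counts were 34340, 75096 and 57834 in NT and 52859, 75439 and 55882 in OXA. The paired ratios were 1.54, 1.00 and 0.966, so that only pair 1 differed by more than a few percent. Between the groups the log2 fold change was 0.14 (standard error 0.27, 95% interval -0.49 to 0.77, edgeR adjusted p = 0.817) and changed sign to -0.11 without NT library 1. With GC and length trends removed and the block, the interval narrowed to -0.10 to 0.14 around 0.02. HMGA2 (ENSG00000149948, chromosome 12, 65824460 to 65966291, plus strand), its paralogue, had 10670, 9265 and 9693 normalized counts in NT and 9376, 8772 and 9039 in OXA. Its log2 fold change was -0.12 (standard error 0.09, 95% interval -0.33 to 0.08), not called without (edgeR adjusted p = 0.469) or with the block (0.125). It was -0.06 without NT library 1, and -0.0084 with the block and the GC and length trends removed (edgeR adjusted p = 0.914).

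GLB1 (ENSG00000170266, chromosome 3, 32996609 to 33097202, minus strand) had the smallest change of the 10 in the unblocked and blocked fits, but not with GC and length trends removed (-0.025, against -0.0084 for HMGA2 and 0.019 for HMGA1). It had 1869, 1813 and 2064 normalized counts in NT and 1865, 1790 and 1936 in OXA. The paired ratios of 0.998, 0.987 and 0.938 were all below 1 by small amounts. The log2 fold change was -0.04 (standard error 0.09, 95% interval -0.25 to 0.18, edgeR adjusted p = 0.850), so a change of the mRNA beyond these bounds in either direction lay outside the interval.

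**Figure D3:**
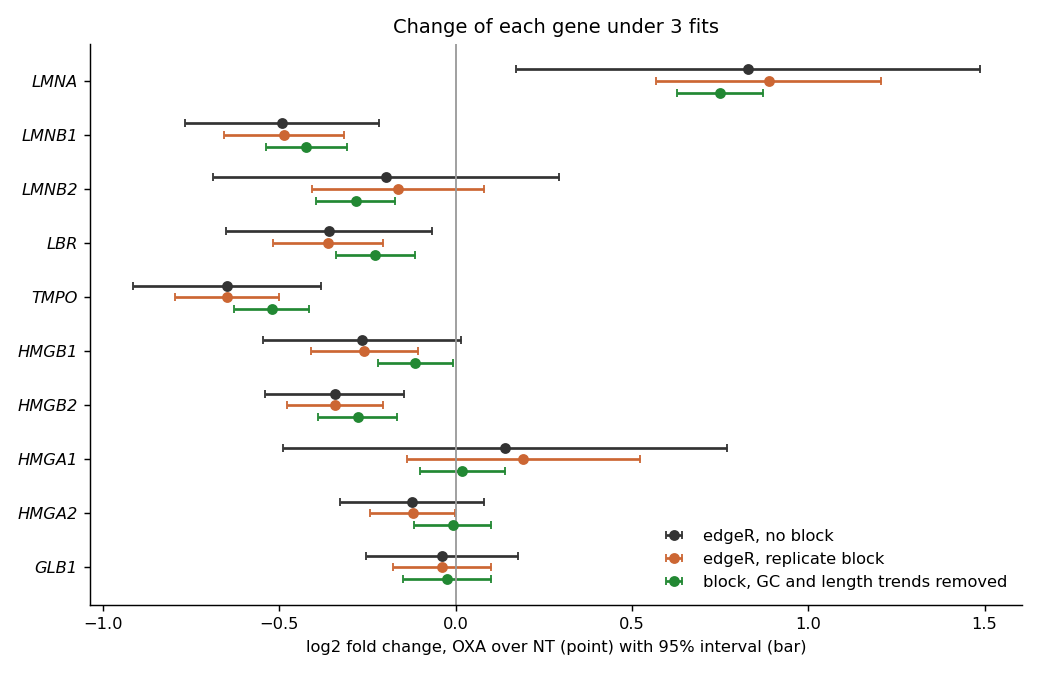
Log2 fold change of OXA over NT (x axis) of each gene (y axis) with its 95% interval as a bar, from edgeR without a block (grey), with the replicate block (orange), and with the block and the GC and length trends removed (green). LMNA lies right of 0 and TMPO, LMNB1, HMGB2 and LBR left of 0 in all 3, the intervals of GLB1 span 0 in all 3, and the bars shorten most for the GC-rich LMNA, LMNB2 and HMGA1.

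Ratios of 2 genes within a library need no normalization factor. LMNA to LMNB1 was 0.359, 0.987 and 0.874 in NT against 1.35, 2.35 and 1.71 in OXA. The ratio was higher in every OXA library, by 2.60 times (log2 difference 1.38), with an exact permutation p of 0.1, two-sided, the smallest that 3 against 3 allow. The GC contents of this pair differ by 13.7 percentage points, and NT library 1 had the lowest ratio. LMNA to LMNB2, genes of like GC content, was tighter, at 0.554, 0.684 and 0.671 in NT and 1.24, 1.41 and 1.296 in OXA. The OXA library was higher by a similar factor in all 3 pairs, 2.24, 2.06 and 1.93 times. LMNA to HMGA1, again of like GC content, was 0.113, 0.116 and 0.128 in NT and 0.181, 0.189 and 0.208 in OXA. Its paired factors of 1.60, 1.63 and 1.63 were nearly the same in the 3 pairs.

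Within the lower genes, TMPO was lower relative to LBR and to HMGB1 in each pair. TMPO to LBR was 2.33, 2.30 and 2.25 in NT and 1.90, 1.94 and 1.81 in OXA, and TMPO to HMGB1 was 0.428, 0.422 and 0.511 in NT and 0.323, 0.330 and 0.384 in OXA. Neither ratio overlapped between the groups. LMNB1 to LMNB2 overlapped (exact permutation p = 0.6), as did HMGB1 to HMGB2, at a mean of 3.03 ± 0.237 in NT and 3.20 ± 0.189 in OXA (exact permutation p = 0.4), and HMGA1 to HMGA2 (exact permutation p = 0.5). Of the 8 ratios, LMNA to LMNB1, HMGB1 to HMGB2 and HMGA1 to HMGA2 were planned and the other 5 were picked after the values were seen. The 5 ratios without overlap share the exact permutation p of 0.1, which is 0.16 after Benjamini-Hochberg adjustment over the 8, and this design could not reach 0.05.

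**Figure D4:**
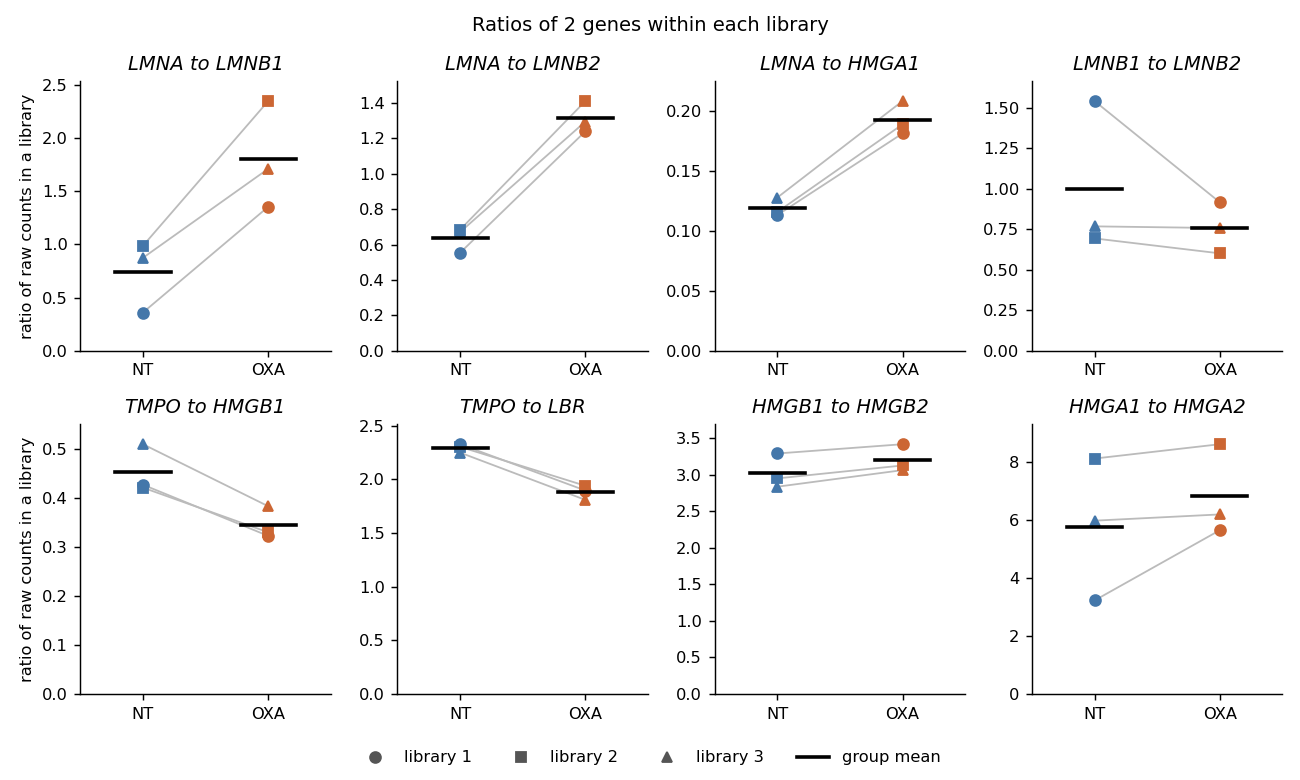
Ratio of the raw counts of 2 genes in each library (y axis, from 0) in NT and OXA (x axis), with libraries 1, 2 and 3 as markers, grey lines joining same-numbered libraries and black bars as group means. LMNA to LMNB2 climbs from 0.554 to 0.684 in NT to 1.24 to 1.41 in OXA, while HMGB1 to HMGB2 and HMGA1 to HMGA2 overlap.

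Of 22 tested genes of the nuclear envelope and of lamin-associated chromatin, 1 was lower and 0 were higher with edgeR (4 lower and 3 higher at an unadjusted p under 0.05, 1 and 1 with DESeq2). Each count of 1 is 4.55% of the list. Of all genes tested, 2.29% were lower and 2.78% higher with edgeR, and 4.41% and 4.64% with DESeq2. SYNE2, which encodes the giant linker protein nesprin-2, fell from 3069 ± 338 normalized counts in NT to 1533 ± 73.0 in OXA, with an edgeR adjusted p of 0.00451 for the log2 fold change of -1.002 (standard error 0.11). With the block, 5 (22.7%) were lower and 3 (13.6%) higher, against 10.9% and 12.1% of all genes tested. The other lower ones were NRM, LEMD3, NEMP1 and CBX1, with log2 fold changes between -0.38 and -0.33, and the higher ones were SYNE1 (0.49), TMEM43 (0.34) and BANF1 (0.22). With GC and length trends also removed, 7 (31.8%) were lower and 3 (13.6%) higher, against 15.3% and 24.9%. The list's median log2 fold change was -0.06.

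Of 6 genes for the prenylation and trimming of lamins, ICMT was lower with and without the block, and none was higher in these edgeR fits (0 at an unadjusted p under 0.05, 0 with DESeq2). The 1 lower gene is 16.7% of the list, against 2.29% of all genes tested without the block and 10.9% with it. Of all genes tested, 2.78% were higher without the block and 12.1% with it. ICMT, the methyltransferase of prenylated proteins, fell from 6461 ± 312 normalized counts in NT to 4381 ± 466 in OXA, with an edgeR adjusted p of 0.0245 for the log2 fold change of -0.56 (standard error 0.10). No gene of the list was called lower without NT library 2, NT library 3, OXA library 1 or OXA library 2. ZMPSTE24, the protease that matures lamin A, was not called with or without the block, and was called higher with the block and the GC and length trends removed (0.31, edgeR adjusted p = 0.000226), as was FNTA, which encodes a farnesyltransferase subunit (0.18, adjusted p = 0.0279). In that fit 2 (33.3%) of the list were higher and 1 (16.7%) lower, against 24.9% and 15.3% of all genes tested.

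Among 15 other tested HMG-box and HMGN genes, UBTF, the nucleolar factor of RNA polymerase I, was lower (6029 ± 419 against 4510 ± 129 normalized counts, log2 fold change -0.42, edgeR adjusted p = 0.0374) and 0 were higher with edgeR (1 at an unadjusted p under 0.05, 0 with DESeq2). The 1 lower gene is 6.67% of the list, against 2.29% of all genes tested, of which 2.78% were higher. No gene of the list was called lower when any library but NT library 1 was left out. With the block, 5 of the 15 (33.3%, against 10.9% of all genes tested) were lower, among them UBTF, HMGB3 (-0.37), HMGXB4 (-0.31) and SMARCE1 (-0.19), and HMGXB3 was higher (0.27). With GC and length trends also removed, 5 (33.3%) were lower and 3 (20%) higher, against 15.3% and 24.9% of all genes tested. The median log2 fold change of this list was -0.12.

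Beside GLB1, 31 lysosomal hydrolase and membrane protein genes were tested. With edgeR 2 were higher, FUCA1 (1447 ± 182 against 2083 ± 70.7 normalized counts, log2 fold change 0.53, edgeR adjusted p = 0.0429) and NEU1 (895 ± 107 against 1289 ± 37.3, log2 fold change 0.53, edgeR adjusted p = 0.0451), enzymes that remove fucose and sialic acid. These 2 are 6.45% of the list, against 2.78% of all genes tested. Without any 1 library other than NT library 1, none was called higher. None was lower with edgeR (6 at an unadjusted p under 0.05, 2 with DESeq2 and 2 without NT library 1). Of all genes tested, 2.29% were lower with edgeR and 4.41% with DESeq2. With the block, 4 (12.9%, against 12.1% of all genes tested) were higher, also GALNS (0.45) and IDS (0.23), and 8 (25.8%, against 10.9%) were lower, led by GLB1L (-0.55), ARSB (-0.48) and GLB1L2 (-0.43), where GLB1L and GLB1L2 are the homologues of GLB1. With GC and length trends also removed, 10 (32.3%, against 24.9% of all genes tested) were higher and 7 (22.6%, against 15.3%) lower. The list's median log2 fold change was -0.0039.

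Of 29 senescence and secretory markers, 19 had enough counts to be tested. Of these, 0 were lower with edgeR, also at an unadjusted p under 0.05, and 0 with DESeq2. The list was written with earlier results of these data known, and with edgeR 5 (26.3%) were called higher, against 2.78% of all genes tested. Beside CDKN1A these included TNFRSF10C (log2 fold change 2.21, edgeR adjusted p = 0.00380), a decoy receptor for TRAIL, GDF15 (1.99, adjusted p = 0.0169) and PLAU (0.98, adjusted p = 0.0483), which encodes urokinase. With the block, 8 (42.1%, against 12.1% of all genes tested) were higher, adding PLAUR (0.77), AREG (0.25) and VEGFA (0.24), and 0 lower. Without NT library 2, OXA library 1, OXA library 2 or OXA library 3, edgeR called 3 higher. CDKN2A, whose products include p16 and are not separated by a count per gene, was not called without the block. It had raw counts of 659, 727 and 773 without oxaliplatin and of 696, 669 and 625 with it (log2 fold change -0.07, edgeR adjusted p = 0.832). It was the 1 gene of the list called lower with the block and the GC and length trends removed (-0.27, edgeR adjusted p = 0.0105). In that fit 10 (52.6%) of the list were higher, against 24.9% of all genes tested. IL6 had 1 count in NT library 1 and 0 in the other libraries.

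Of 14 proliferation genes, 0 were higher with edgeR, also at an unadjusted p under 0.05, and 0 with DESeq2. This list, too, was written with earlier results known, and with edgeR 3 (21.4%) were called lower, against 2.29% of all genes tested. They were E2F1 (log2 fold change -1.10, edgeR adjusted p = 0.00858), the replicative helicase subunit MCM6 (-1.01, adjusted p = 0.00845) and MKI67 (-0.60, adjusted p = 0.0258). Without NT library 1 there were 6 lower and without OXA library 1 there were 0. With the block 9 (64.3%) were lower, against 10.9% of all genes tested. With GC and length trends also removed 9 were lower, against 15.3%, with MYBL2 called in place of TOP2A. The list's median log2 fold change without a block was -0.35, and that of all genes tested was 0.02. Without a block MKI67, the proliferation marker, and TMPO changed by -0.60 and -0.65, while TOP2A (-0.25), CCNB1 (-0.15), PCNA (-0.05) and TYMS (0.02) changed less. PCNA, CCNB1, TYMS and LIN9 were not called without the block, with it, or with GC and length trends also removed. The part of proliferation in the lower lamina and HMG genes was not tested.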

How the data were processed

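Poly(A) RNA of HCT116 cells was sequenced by the study as stranded libraries (2x100) and mapped to GRCh38 with STAR 2.7.5b. The submitters' processing notes also list Trimmomatic 0.32, RSEM 1.3.3 and DESeq2 2.13. The annotation and strand setting of the counting are not given in the sources used here. The authors deposited raw counts per gene, used as given, and a normalized signal that differs from the counts by gene-specific factors, used only as an alternative. Genes were filtered with filterByExpr (minimum count 10, minimum total 15), scaled by TMM and tested with edgeR 4.0.16 (quasi-likelihood, R 4.3.3; limma 3.58.1, DESeq2 1.42.0) with Benjamini-Hochberg adjustment over 13727 genes; a call is an adjusted p under 0.05. Intervals are 95%, and they cover the spread between libraries. The edgeR fit without a block was tested on simulated counts that had no pairing of libraries and no GC trend. The other steps were not tested on simulated data.

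Same-numbered libraries correlated in their deviations from the group means (0.55, 0.54 and 0.31, each over 0.1), against -0.47 to 0.09 for other pairs; the numbers come from the sample titles. No pair of replicates agreed within sampling noise (chi-square per gene 19.2 to 83.1).

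The genes and lists were chosen with earlier results of these data known. Named were all 10 genes, the largest 3 called genes per direction of each list and all where 5 or fewer were called, CDKN1A, and the 5 genes most like LMNA and LMNB1; PCR duplicates and pseudogene reads were not separated. GENCODE release 44 gave positions, lengths and GC. CDKN2A, IL6, ZMPSTE24, FNTA, PLAUR, AREG, VEGFA, TOP2A, MYBL2, CCNB1, PCNA, TYMS and LIN9 fall outside that rule. So do the epithelial markers and the markers of other cell types. Some genes that the rule selects are not reported here.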

Additional observations from a re-analysis of the deposited data

How the results depend on the processing

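Over 17 alternatives, of which the GC and length correction without a block and the block without both libraries numbered 1 were chosen after seeing the data, 9 of the 10 genes kept their direction in every one. HMGA1 (0.14) ranged from -0.11 (without NT replicate 1) to 0.39 over the fits without 1 library, with -0.036 without OXA replicate 2, and was -0.021 with the block and both libraries numbered 1 left out. Of 170 single values, 134 kept their side of the threshold, 29 gained a call, 4 lost it (TMPO) and 3 reversed. The cause was not tested.

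Against 1 gene called lower, there were 3 with upper quartile factors, with a filter at 1 CPM in 3 libraries and with DESeq2, 2 with no filter, 4 with GC and length trends removed, 5 with the replicate block, with or without those trends removed, and 6 with the replicate block and both libraries numbered 1 left out. Against 0 called higher, DESeq2, the replicate block, both GC corrections and the block without libraries 1 each gave 1. Leaving out 1 library gave 0 to 2 lower and 0 higher.

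Over all genes, 315 were lower and 381 higher. Lower became 493 with upper quartile factors, 479 with the filter at 1 CPM, 578 with DESeq2, 1493 with the replicate block, 2098 with the block and GC and length trends removed, 919 with those trends removed and no block, 200 with the authors' gene-specific factors and 2800 with the block and libraries 1 left out. Higher became 609 with DESeq2, 1664 with the replicate block, 3412 with the block and trends removed, 1586 with the trends removed alone, 241 with the authors' factors and 2939 with the block and libraries 1 left out. Leaving out 1 library gave 19 to 571 lower and 66 to 623 higher. The ratio of LMNA to LMNB1 kept its direction without any 1 library. The block changed no call of HMGA1, HMGA2, LMNB2, TMPO or GLB1.

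The design of 3 against 3 limits single tests. GENCODE lists 48 numbered pseudogenes of HMGB1, 8 of HMGA1, 2 of TMPO and 1 of HMGB2, and none of them is in the table, so the counts of these genes are uncertain. TMPPE lies over GLB1.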

Other observations

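Over the 6 libraries, the genes whose log2 counts followed LMNA most closely, of 12065 with at least 50 normalized counts on average, were MAP2K3, NINJ1, RALGDS, VPS37B and PRKAR1B, each with a Pearson correlation of 0.998 to 0.999. Their log2 fold changes lay between 0.42 and 0.91 and their GC contents between 58.6% and 62.9%, near the 61.5% of LMNA. The closest to LMNB1 were PXYLP1, ERCC6L, FAM107B, TOPBP1 and MTBP, with the same range of correlation, log2 fold changes between -0.72 and -0.34 and GC contents between 36.6% and 43.3%. ERCC6L and TOPBP1 of these were called lower with edgeR (adjusted p = 0.0374 and 0.0399), and with the replicate block all 5 were called. The points share 6 libraries and their depth and base composition, and the correlations are a description with no test.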
